A study of Mus musculus with 16 samples.

Results

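The regions described here are the stretches of open chromatin nearest to 38 autophagy and lysosome genes in mouse haematopoietic stem cells (HSCs), the marrow cells that renew the blood. They were measured by ATAC-seq, in which a transposase cuts DNA where chromatin is open. Peaks of the 16 libraries that overlapped were merged on chromosomes 1 to 19 and X, and regions with a peak in at least 2 libraries were kept. A region belonged to a listed gene where that gene was the nearest protein-coding gene and lay within 100 kb of the median summit. Of 33773 regions kept, 88 were nearest to a listed gene, and they belonged to 35 of the 38 genes. A library with a peak in a region is said to have called it, and absence of a peak means that no call was made, not that the chromatin was closed. Regions are numbered along the chromosome within each gene, so that Tfeb region 1 has the lowest coordinate of the Tfeb regions. At the edges of the rule, 6 regions were called in exactly 2 libraries, and 5 regions of listed genes were left out because 1 library called them. The farthest region kept lay 96690 bp from Pik3c3, and the nearest left out lay 182202 bp from that gene and was called in 6 libraries. No region was nearest to Atg13, Atg4b or Atg12, whose ends lay close to regions given to neighbouring genes.

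The 4 groups held 4 libraries each, all from male mice. Old post libraries came from HSCs taken from pooled marrow of 5 young BJ recipients 3 months after each had received cells from an old donor. Young post libraries were made in the same way from young donors. Old pre libraries came from HSCs of a single B6 mouse aged 24 months, and young pre libraries from HSCs of pools of 3 to 4 B6 mice aged 8 to 12 weeks. Each library was made from 10000 HSCs with the Omni-ATAC protocol. For the post groups, 1000 HSCs of the same donors were transplanted with 300000 BJ helper marrow cells depleted of Sca-1, after lethal irradiation of the recipients. No label states whether a donor marker was used to sort the post HSCs, and HSCs of recipient or helper origin cannot be told apart from donor HSCs there. Young libraries pool several donors and old libraries hold 1 donor, so that donor number and age cannot be told apart either. Replicates were separate donors or donor pools.

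Autophagy encloses parts of the cytoplasm in a double membrane, the autophagosome, and delivers them to the lysosome, where acid hydrolases digest them. The ULK kinase complex starts the process, a lipid kinase complex around Pik3c3 and Becn1 marks the membrane, and 2 ubiquitin-like conjugation systems attach LC3 family proteins to it. Tfeb, Tfe3 and Mitf are related transcription factors that bind CACGTG words, known as E-boxes, and the longer CLEAR element, GTCACGTGAC, in front of lysosome and autophagy genes. In mouse HSCs, autophagy is known to clear mitochondria, and loss of Atg7 or Atg12 from the blood system impairs HSC maintenance.

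The promoters of the 3 transcription factors, and of the listed genes that held the 8-base word GTCACGTG, are shown because this is the word that the 3 factors are known to bind. Each is the 250 bases before a RefSeq start in GRCm38.p6, 5′ to 3′ on the gene's strand, and capitals mark the words searched. For genes with several starts, the outermost is shown.
Tfeb, chr17:47736787-47737036, plus strand: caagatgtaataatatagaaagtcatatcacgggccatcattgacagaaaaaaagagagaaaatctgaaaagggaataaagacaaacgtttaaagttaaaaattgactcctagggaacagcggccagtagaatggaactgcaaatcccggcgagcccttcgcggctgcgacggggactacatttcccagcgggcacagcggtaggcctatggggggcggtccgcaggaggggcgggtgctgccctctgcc
Tfe3, chrX:7762411-7762660, plus strand: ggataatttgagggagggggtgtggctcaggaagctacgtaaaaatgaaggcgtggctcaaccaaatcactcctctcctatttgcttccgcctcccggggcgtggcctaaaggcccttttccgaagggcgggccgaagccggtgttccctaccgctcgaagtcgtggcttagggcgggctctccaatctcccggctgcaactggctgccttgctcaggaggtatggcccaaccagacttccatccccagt
Mitf, chr6:97806808-97807057, plus strand: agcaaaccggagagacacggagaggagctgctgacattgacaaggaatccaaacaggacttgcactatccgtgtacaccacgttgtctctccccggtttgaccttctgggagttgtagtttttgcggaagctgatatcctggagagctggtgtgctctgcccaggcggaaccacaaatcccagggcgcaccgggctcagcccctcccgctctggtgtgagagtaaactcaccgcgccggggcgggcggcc
Atg3, chr16:45158579-45158828, plus strand: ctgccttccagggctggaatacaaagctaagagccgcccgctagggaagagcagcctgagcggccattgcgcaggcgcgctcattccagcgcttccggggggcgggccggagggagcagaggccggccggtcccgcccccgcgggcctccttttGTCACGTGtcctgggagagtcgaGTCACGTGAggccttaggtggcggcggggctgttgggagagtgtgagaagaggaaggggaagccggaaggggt
Atg7, chr6:114670846-114671095, plus strand: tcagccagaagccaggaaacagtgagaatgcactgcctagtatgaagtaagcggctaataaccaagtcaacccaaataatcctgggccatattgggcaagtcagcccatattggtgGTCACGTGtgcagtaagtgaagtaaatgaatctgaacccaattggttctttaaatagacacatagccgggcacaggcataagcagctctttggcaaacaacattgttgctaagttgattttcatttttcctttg
Ctsd, chr7:142387828-142388077, minus strand: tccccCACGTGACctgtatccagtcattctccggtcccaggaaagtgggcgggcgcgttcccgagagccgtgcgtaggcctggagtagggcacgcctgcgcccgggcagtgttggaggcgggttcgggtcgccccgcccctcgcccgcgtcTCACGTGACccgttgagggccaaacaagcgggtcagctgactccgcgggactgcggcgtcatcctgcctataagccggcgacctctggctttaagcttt
Lamp1, chr8:13158911-13159160, plus strand: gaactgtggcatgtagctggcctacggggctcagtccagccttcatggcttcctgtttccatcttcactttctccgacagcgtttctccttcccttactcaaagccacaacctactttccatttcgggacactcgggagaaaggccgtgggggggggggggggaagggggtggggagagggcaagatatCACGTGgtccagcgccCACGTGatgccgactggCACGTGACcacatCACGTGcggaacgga
Mcoln1, chr8:3500269-3500518, plus strand: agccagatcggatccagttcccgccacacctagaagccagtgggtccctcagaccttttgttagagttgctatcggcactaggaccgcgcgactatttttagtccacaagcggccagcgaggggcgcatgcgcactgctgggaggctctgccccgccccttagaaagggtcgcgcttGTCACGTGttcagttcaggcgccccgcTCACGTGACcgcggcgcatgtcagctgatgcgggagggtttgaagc
Both strands were searched for CACGTG, for GTCACGTG (whose other strand reads CACGTGAC), for TCACGTGA and for GTCACGTGAC, each of which contains CACGTG. RefSeq starts were found for 29 of the listed genes, 34 starts in all. CACGTG stood in front of 7 of the 29 genes (Atg3, Atg5, Atg7, Ctsd, Ctsl, Lamp1 and Mcoln1), against 7.7% of 17274 genes in the table. GTCACGTG stood in front of 5 of them, against 2.67% of all genes. TCACGTGA stood in front of 3 (Atg3, Ctsd and Mcoln1), against 1.17% of all genes. The full GTCACGTGAC was found in front of none of the 29, against 0.359% of all genes. Lamp1 held 4 copies of CACGTG, the first of them 61 bases before the start, and no promoter of the 3 transcription factors shown above held the word. The open regions over these promoters were called in 16 libraries at Atg3, Ctsd and Mitf, 15 at Tfeb and Tfe3, 11 at Lamp1 and 10 at Mcoln1. No open region overlapped the Atg7 promoter shown, whose start lies 27.969 kb inside the Atg7 gene. A match is a description of these letters and does not show binding.

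The peak lists held 14008 to 31003 peaks in old post libraries and 30784 to 32530 in young post libraries. They held 5687 to 30520 peaks in old pre libraries and 9614 to 28298 in young pre libraries. The young post lists were thus all long and alike, while lists within each of the other groups differed widely. Old pre 4, young pre 4 and old post 4 had the shortest lists. No read counts were used, so the depth behind a call is unknown. Transposition was done on days 4, 4, 5 and 6 for old post, days 5, 5, 6 and 6 for young post, days 1, 1, 2 and 2 for old pre, and days 2, 2, 2 and 3 for young pre. Stage and transposition day cannot be told apart, and both ages were present on days 2, 5 and 6. Of 14 HSC marker genes, 13 had an open region nearby, each in 13 or more libraries, and Ly6a had none. None of 3 B cell markers had a region, and of 6 granulocyte and monocyte markers S100a8, Elane, Mpo and Ly6g had none. Csf1r had one in 15 libraries, and S100a9 in 3 old post, 4 young post, 1 old pre and 0 young pre libraries, and its part in the results was not tested. Of 4 T and NK cell markers, Cd3d and Klrb1c had regions in 15 and 16 libraries and Cd3e and Cd8a had none, and erythroid, platelet and stromal markers each had a region in 12 or more.

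The 88 regions fell into those at gene ends, with the summit within 1 kb of either end of a protein-coding gene, those within genes and those outside genes. There were 32 at gene ends (36.4%, against 32.9% of all regions), 36 within genes (40.9%, against 39.2%) and 20 outside genes (22.7%, against 24.4%). Of 24 gene-end regions of genes with a RefSeq start, 22 had their summit within 1 kb of that start. Gene-end regions were called in 10 to 16 libraries with a median of 15, the same median as for gene-end regions of all genes. Regions within genes were called in a median of 9 libraries, against 10 for all such regions, and regions outside genes in a median of 6, against 10. Gene ends of autophagy and lysosome genes were called in most lists: 14 of the 32 regions (43.8%) were called in all 16 libraries, against 31.7% of all gene-end regions, and 0 were called in 8 or fewer, against 13.3%. All 32 were called in each young post library. Old pre 4, the shortest list, called 16 of the 88 regions, the 16 that every library called. Outside genes, 13 of the 20 regions (65%) were called in 8 libraries or fewer, against 40.9% of all such regions. These shares describe the lists and were not tested.

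**Figure D1:**
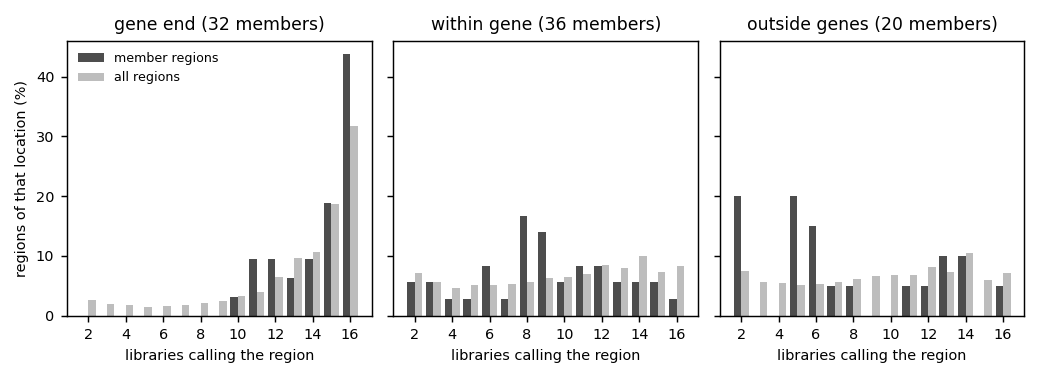
Number of the 16 libraries that called each region (x axis) and the percentage of regions of that location (y axis), for the 88 regions of the autophagy and lysosome genes (dark bars) and for all regions (light bars), by location. Gene-end regions of the listed genes lie at 10 libraries or more with 43.8% at 16, while 65% of those outside genes lie at 8 or fewer.

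Among all 88 regions, 16 (18.2%) were called in every library, against 15.6% of all regions. They were Atg3 region 1, Atg5 region 1, Atp6v0d1 region 2, Ctsb region 1, Ctsd region 3, Ctsl region 1, Gabarap region 1, Gabarapl2 region 1, Lipa region 3, Map1lc3b region 1, Mitf region 2, Npc1 region 4, Sqstm1 region 1, Ulk1 region 1, Uvrag region 9 and Wipi1 region 3. Every role described below held at least 1 of them, and of the 3 transcription factor genes Mitf alone did. Another 8 regions were called in 15 libraries, and all 8 were missing in old pre 4, the shortest list. The peak caller's area, a sum of its significance over the bases of a peak, is the authors' value and was used only as a percentile within a list. The median over gene-end regions was percentile 76.8, against 29.7 within genes and 13.3 outside genes. The listed region with the largest area was Atp6v0d1 region 2 or Wipi1 region 3 in every list but that of old pre 2, where it was Ulk1 region 1, which stood at percentile 98.4.

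The share of the 88 regions called followed the length of each list. In old post it was 58.0%, 76.1%, 86.4% and 36.4% in replicates 1 to 4, and in young post 89.8%, 88.6%, 92.05% and 93.2%. In old pre it was 78.4%, 83.0%, 45.5% and 18.2%, and in young pre 79.5%, 56.8%, 59.1% and 28.4%. Young post libraries stood above all others, and the remaining 3 groups overlapped widely. The means were 64.2% ± 21.97 in old post, 90.9% ± 2.07 in young post, 56.3% ± 30.4 in old pre and 56.0% ± 21.0 in young pre (SD, n = 4 each). The same share over all regions was 67.1% in old post, 88.5% in young post, 55.5% in old pre and 56.2% in young pre. A peak can be absent from a list through low depth, through fewer cells with the region open or through less opening in each cell. Depth is unknown here, and bulk libraries cannot tell fewer open cells from less opening in each cell. Which of these applied was not tested.

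To allow for list length, each library's calls of the 88 regions were set against the share it called of all regions with the same number of libraries. The share of the 88 regions called minus the share so expected was −5.13, −4.36, −0.773 and −0.476 percentage points in old post replicates 1 to 4. In young post the values were −1.88, 1.71, 3.28 and 2.98 points. In old pre they were 3.45, −0.452, 0.643 and −0.171 points, and in young pre 0.444, −2.17, 2.13 and 0.779 points. The mean was −2.69 ± 2.40 points in old post, 1.52 ± 2.37 in young post, 0.867 ± 1.78 in old pre and 0.297 ± 1.80 in young pre (SD, n = 4 each). All 4 old post values were below 0, yet old post and young post overlapped through young post 1. These values sum to 0 over the 16 libraries, so that a high value in a group forces a lower one elsewhere. The Atg7 locus, with 13 of the 88 regions, had a large part in the old post and young post values. It gave 13 calls in old post where 19.02 were expected, and 46 in young post where 39.9 were expected. These sums include Atg7 regions 2, 10 and 13, called in young post alone and so kept only through that group. Uvrag gave 20 and 32 calls in old post and young post with 20.2 and 31.2 expected, and Tfeb 23 and 28 with 22.1 and 27.3 expected. The plain share minus that of all regions in young post was 2.41 points, but −2.04 with lists shortened to the 14008 peaks of the third shortest and −2.91 with peaks of an area of at least 400.

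**Figure D2:**
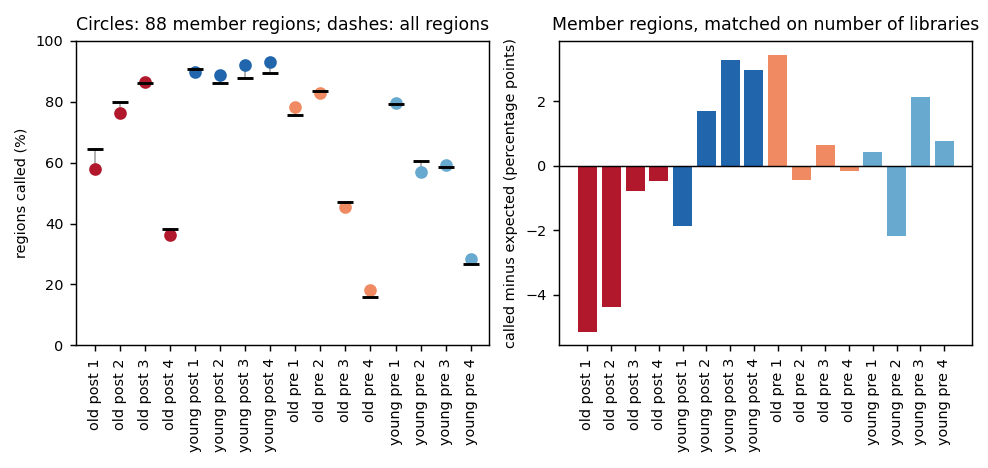
Left, the percentage of the 88 regions (circles) and of all 33773 regions (dashes) called in each library; right, the percentage points by which calls of the 88 regions exceeded those expected from regions called in as many libraries. Circles lie close to the dashes, and the 4 old post bars lie below 0, between −5.13 and −0.476.

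The transcription factors had 13 regions, called in a median of 12 libraries. Over these regions and libraries, 75% of possible calls were made in old post, 98.1% in young post, 53.8% in old pre and 53.8% in young pre. All regions had 67.1% in old post, 88.5% in young post, 55.5% in old pre and 56.2% in young pre. The shares of the other roles below stand beside the same values. Tfeb, the main activator of lysosome genes, had 7 regions. Tfeb region 1 (chr17:47736853-47739948, 3096 bp) covered the first pair of its starts and was called in 15 libraries. Its area stood at percentile 88.5 to 97.3 in 13 of them, but at 17.7 in old post 4 and 36.7 in young pre 4. Tfeb region 2 lay within the gene and was called in 4 old post, 4 young post, 2 old pre and 3 young pre libraries. Tfeb regions 4 and 5 at the far end of the gene were each called in 4 old post, 4 young post, 3 old pre and 3 young pre libraries, and region 7 in 3 old post, 4 young post, 3 old pre and 2 young pre libraries. Tfeb region 6 was called in 1 old post, 4 young post, 1 old pre and 0 young pre libraries.

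Mitf, best known from melanocytes, had its outermost start open in all 16 libraries (Mitf region 2, chr6:97806634-97807878). Mitf region 3 (chr6:97929377-97929884) had its summit at −152 bp from the second Mitf start and was called in old post 2 and 3, all 4 young post libraries, old pre 1 and 2, and no young pre library. No open region overlapped the third start. Mitf region 1, 73071 bp outside the gene, was called in old post 3 and in all 4 young post libraries, with areas at percentile 2.85 to 16.9, and in no pre library. Tfe3 region 1 covered the Tfe3 start and was called in 15 libraries, and Tfe3 region 2 in 12. Tfe3 region 3, 3838 bp beyond the gene, was called in 2 old post, 3 young post, 1 old pre and 0 young pre libraries.

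**Figure D3:**
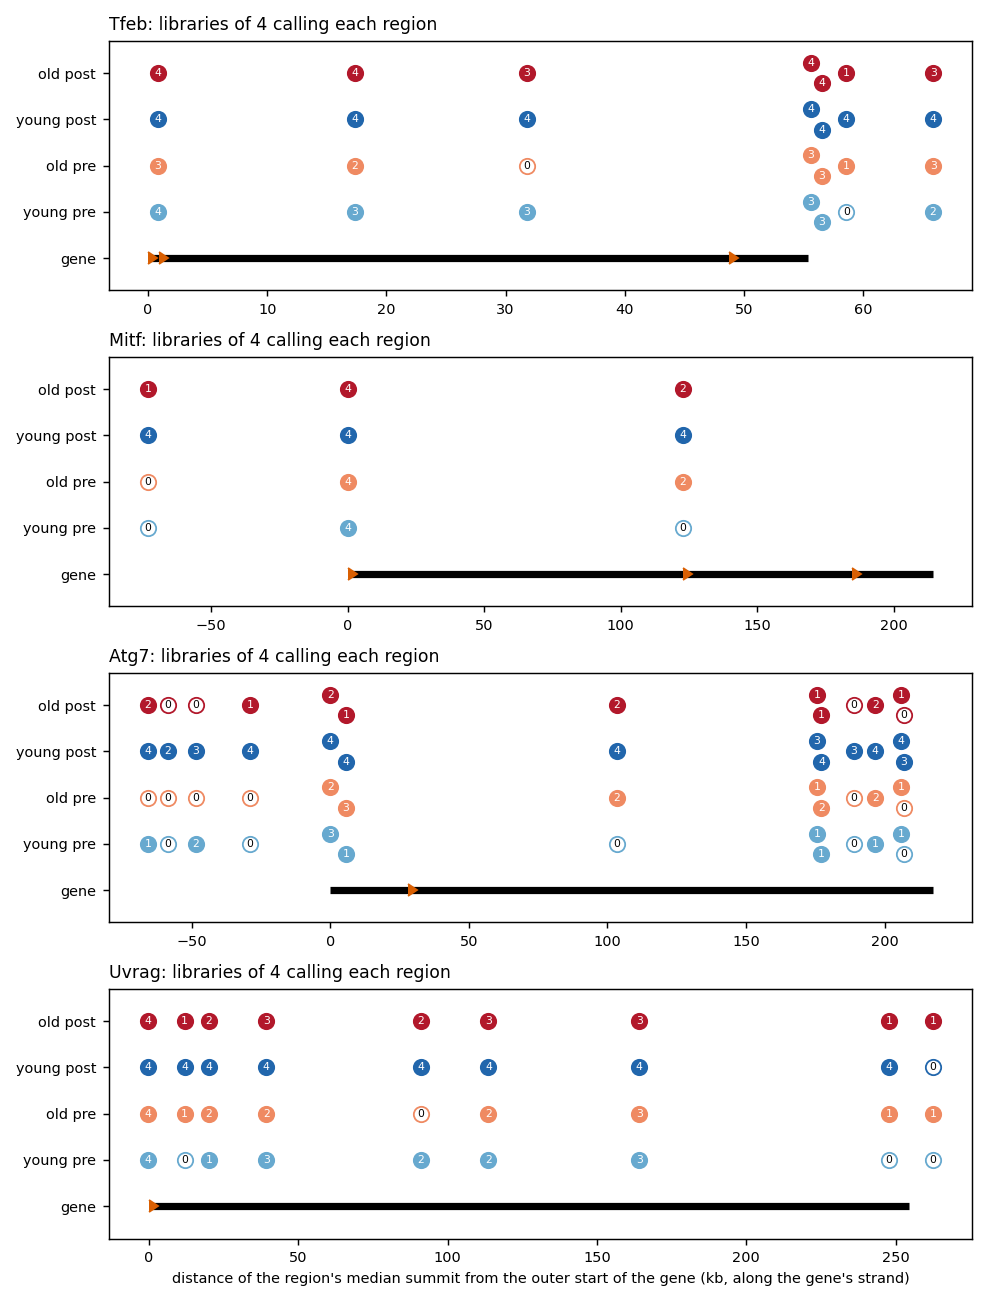
Open regions of Tfeb, Mitf, Atg7 and Uvrag along each gene's strand (x axis, kb from the outer start of the gene; black bar, gene; orange carets, RefSeq starts), with the number of libraries of 4 that called each region in every group. Open circles mark 0 of 4; circles of close neighbours are set above and below the line of their group. Tfeb region 3, at 31.801 kb, was called in 0 old pre libraries and 3 young pre libraries.

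The initiation genes had 3 regions, with 91.7% of possible calls in old post, 100% in young post, 83.3% in old pre and 100% in young pre. Ulk1, the kinase that starts autophagosome formation, had a single region (chr5:110807531-110810587, 3057 bp) that covered its start and was called in all 16 libraries. Rb1cc1, a scaffold of the same complex, had a region at its gene end in 15 libraries, and Ulk2, a second kinase, had its region in 14. The end of Atg13, a partner of Ulk1, lay 305 bp from the summit of an open region called in all 16 libraries, which the rule gave to the neighbouring gene Harbi1.

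Nucleation genes had 13 regions, 9 of them of Uvrag. They made 61.5% of possible calls in old post, 90.4% in young post, 50% in old pre and 46.2% in young pre. Becn1, the scaffold of the lipid kinase complex, had its gene end called in 13 libraries, and Atg14, which directs the complex to autophagosomes, in 14. Pik3c3, the lipid kinase, had no gene-end region: region 1, within the gene, was called in 14 libraries, and region 2, 96690 bp away, in 0 old post, 3 young post, 2 old pre and 0 young pre libraries. Uvrag, a partner of Becn1, had its start open in all 16 libraries (Uvrag region 9, chr7:99139618-99141994). Its 7 regions within the gene, which spans 254.426 kb, were called in 6 to 13 libraries. Uvrag region 5 was called in 2 old post, 4 young post, 0 old pre and 2 young pre libraries. All 9 Uvrag regions together gave 20 of 36 possible calls in old post, 32 in young post, 16 in old pre and 15 in young pre. From regions called in as many libraries, 20.2 calls were expected in old post, 31.2 in young post, 16.2 in old pre and 15.3 in young pre.

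Of the genes that bind the marked membrane or supply it, Wipi1 and Wipi2 read the lipid made by Pik3c3, and Atg9a moves lipids on vesicles. The starts of Wipi1 (region 3) and Wipi2 (region 1) were open in 16 and 15 libraries. Atg9a had 1 region within the gene, called in 2 old post, 4 young post, 1 old pre and 1 young pre libraries. Its ends lay within 1 kb of regions given to Ankzf1 and Abcb6, called in 16 and 15 libraries. Wipi1 region 2 was called in 15 libraries and region 1 in 1 library of each group.

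Conjugation genes had 18 regions with a median of 8 libraries, the lowest median of any role. Of these regions, 13 were of Atg7, a single locus, while those of Atg3, Atg5 and Atg16l1 were called in 12 to 16 libraries. All 18 made 44.4% of possible calls in old post, 91.7% in young post, 40.3% in old pre and 40.3% in young pre. These values thus describe mostly the Atg7 locus. The starts of Atg3, the enzyme that passes LC3 to the membrane lipid, and of Atg5, part of the complex that places it, were open in all 16 libraries. The end of Atg16l1, which joins that complex to the membrane, was open in 15. Atg5 regions 2 and 3, further along the gene and 16366 bp beyond it, were called in 12 and 14 libraries. Atg12 and Atg4b had no region of their own, but regions given to Ap3s1 and Thap4 lay 95 and 833 bp from their ends and were called in 15 and 12 libraries.

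Atg7, the enzyme that activates both conjugation systems, had 13 regions, the most of any listed gene. Atg7 region 5 (chr6:114642834-114643627), at the outer end of the gene, was called in old post 2 and 3, all 4 young post libraries, old pre 1 and 2 and young pre 1, 2 and 3, 11 in all. The other 12, 4 of them upstream and 8 within the gene, were called in 2 to 9 libraries. By library, 0, 4, 9 and 0 of the 13 regions were called in old post, and 10, 12, 12 and 12 in young post. Old pre libraries called 5, 7, 1 and 0 of them, and young pre libraries 8, 2, 1 and 0. Of all 13, every young post library called more than any other library did. Atg7 regions 2, 10 and 13 were called in 2, 3 and 3 young post libraries and in no other, and so were kept only through that group. Their calls are part of that ranking, and without them young post 1 and 3 would not stand above old post 3. Those calls are also part of the sums given next. In sum, 13 of 52 possible calls were made in old post where 19.02 were expected from regions called in as many libraries, and 46 in young post where 39.9 were expected. Old pre gave 13 calls with 13.95 expected, and young pre 11 with 10.2 expected. Regions of Atg7 share a locus and are not independent of each other.

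The LC3 family had 10 regions and made 72.5% of possible calls in old post, 87.5% in young post, 72.5% in old pre and 75% in young pre. The starts of Gabarap and Gabarapl2, which tag the autophagosome membrane, were open in all 16 libraries. Map1lc3b, the LC3B gene, had its start (region 2) in 15 and region 1, 4830 bp before the gene, in all 16. Gabarapl1 region 1 (chr6:129532514-129536219), at 3706 bp the widest of the 88, was called in 14. Map1lc3a had a pair of adjacent gene-end regions, called in 13 and 12 libraries. Sqstm1, the cargo receptor p62, had its start open in all 16 libraries and region 2, 2328 bp before it, in 11.

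The lysosome membrane and pump genes had 7 regions, with 67.9% of possible calls in old post, 100% in young post, 57.1% in old pre and 57.1% in young pre. Atp6v0d1, a subunit of the membrane sector of the proton pump, had its start open in all 16 libraries (region 2, chr8:105564309-105567189), at percentile 71.6 to 98.1. The other starts were called in fewer: Lamp1 region 1 in 11 libraries, Lamp2 region 1 in 12, Mcoln1 region 1 in 10 and the gene end of Atp6v1h in 12. Lamp1 and Lamp2 encode the main glycoproteins of the lysosome membrane, Mcoln1 its calcium channel and Atp6v1h a subunit of the soluble sector of the pump. All 4 of these regions were called in old post 1, 2 and 3 and not in old post 4, in all 4 young post libraries, and in no library numbered 4 of the pre groups. Lamp1 region 1 was called in old pre 1 and 2 and in young pre 1 and 3, and Mcoln1 region 1 in old pre 1 and 2 and in young pre 1. Atp6v1h region 1 was called in old pre 1, 2 and 3 and in young pre 1 and 3.

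Lysosomal hydrolases and lipid handling genes had 17 regions, with 63.2% of possible calls in old post, 82.4% in young post, 61.8% in old pre and 54.4% in young pre. The gene ends of the proteases Ctsb, Ctsd and Ctsl, of the acid lipase Lipa and of the cholesterol exporter Npc1 were open in all 16 libraries. The start of Hexa, a subunit of a ganglioside hydrolase, was open in 11, and its region 2, 2198 bp beyond the gene, in 13. Ctss, a protease of antigen-presenting cells, had no region at its start and 1 region 7694 bp before it, called in 1 old post, 3 young post, 2 old pre and 0 young pre libraries. Ctsb region 2 (chr14:63132113-63132777), Ctsd region 2 (chr7:142384082-142384656) and Gabarapl1 region 3 (chr6:129547862-129548503) were called only in old pre 1 and 2, the libraries of transposition day 1. This made 3 of 88 regions (3.41%), against 1.38% of all regions. The same 3 were the listed regions called in at least 2 old pre libraries and no library of another group, against 1.47% of all regions. Of these, Ctsb region 2 stood at percentile 47.3 and 47.5 of the lists, well inside them.

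**Figure D4:**
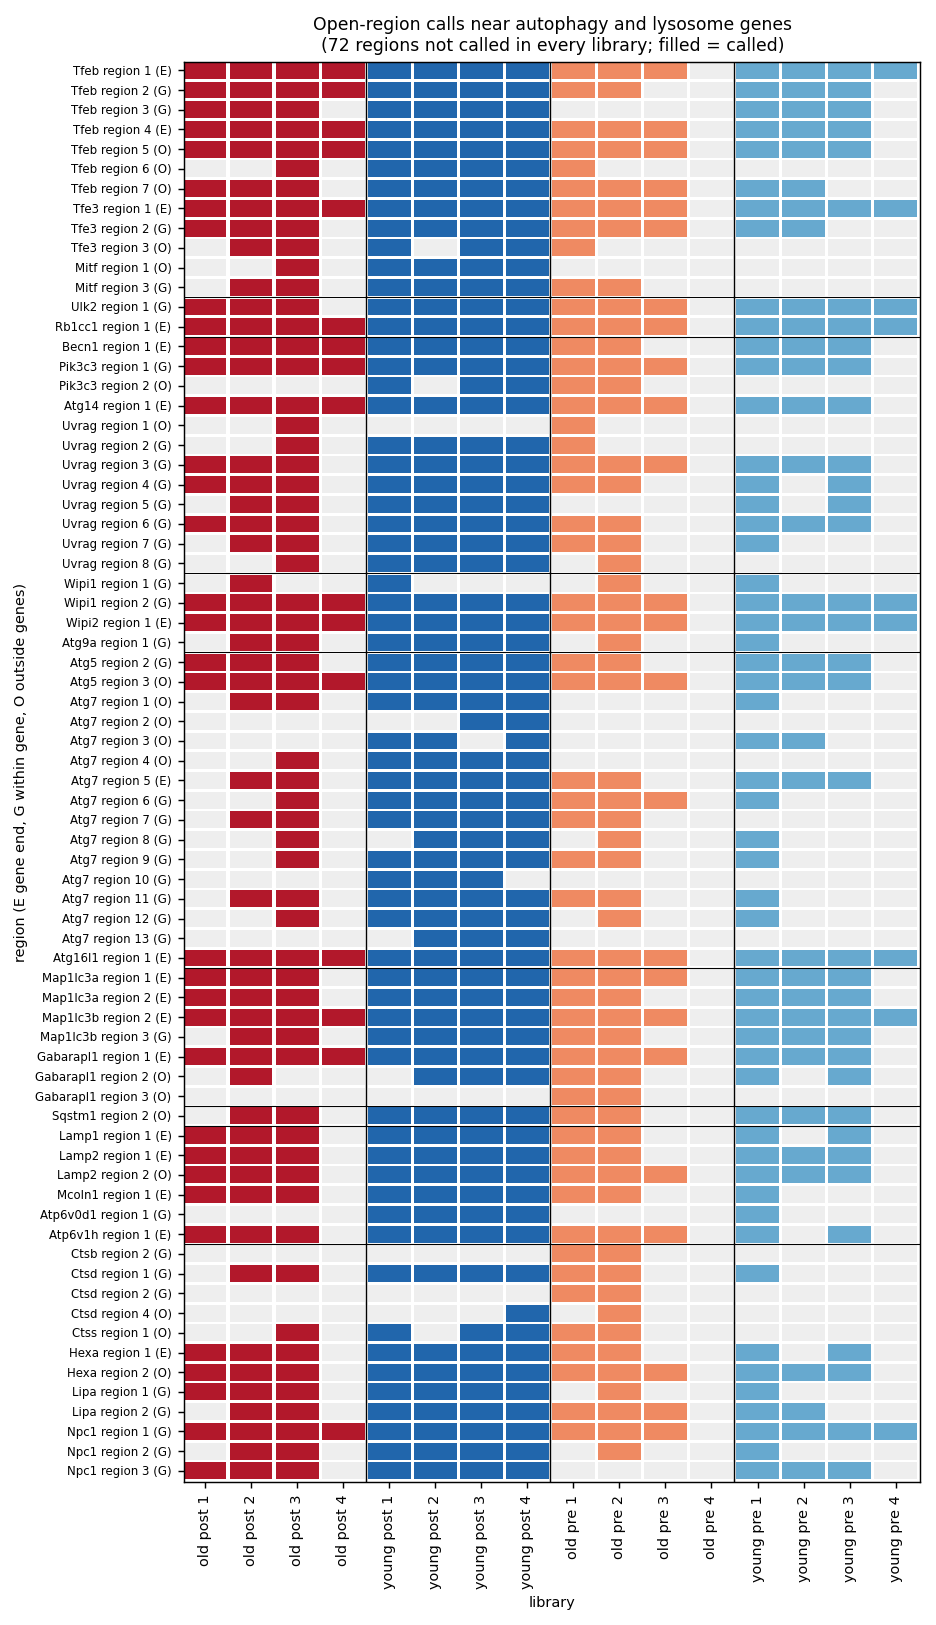
Calls (filled) of the 72 regions that were not called in every library, by library and ordered by role, with horizontal lines between roles and E, G and O for gene end, within gene and outside genes. Young post libraries are filled almost throughout, old pre 4 is empty and young pre 4 mostly so, and Tfeb region 3 and Npc1 region 3 are among those empty in all 4 old pre libraries.

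Calls of single regions were compared between groups with a two-sided exact conditional test. It weights libraries by how many regions they called, so that a call in a short list counts for more, and the p values of all regions tested were adjusted together by the Benjamini-Hochberg method. Between old pre and young pre, which asks how age alters HSC chromatin before transplantation, 0 of 25 listed regions tested passed an adjusted p of 0.05 by this exact test, where 0% of 9407 regions passed. At an unadjusted p under 0.05 there were 2, against 2.29% of all regions tested, and by Fisher's exact test without weights there were 0 at either level, against 0% of all regions. With 4 libraries against 4, the smallest two-sided p of Fisher's exact test is 0.0286. After adjustment a region could pass only if most regions tested had that p, so its 0 decides nothing in such comparisons. Tfeb region 3 (chr17:47768567-47769260), inside the Tfeb gene, had no peak in any old pre library and had one in young pre 1, 2 and 3. In the post groups it was called in old post 1, 2 and 3 and in all 4 young post libraries. Its area stood at percentile 27.2, 36.9 and 40.1 in old post, 49.0, 53.4, 52.9 and 52.9 in young post, and 33.7, 9.29 and 24.3 in young pre. Npc1 region 3 (chr18:12230083-12230524), within the gene, was called in exactly the same libraries. Both had p = 0.00338 and an adjusted p of 0.361 by the exact conditional test, with −1.78 calls in old pre relative to the number expected.

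Old pre 1 and 2 had long lists, and of 1840 regions called in 10 libraries, as these were, they called 86.03% and 97.3%. Of those 1840 regions, 21 (1.14%) were called in no old pre library. At least 3 fewer calls in old pre than in young pre were seen in those 2 regions (2.27%), against 0.261% of all regions. At least 3 more calls in old pre than in young pre were seen in 0, against 0.376%. At least 3 more calls in old post than in old pre were seen in the same 2 regions, against 1.16% of all regions, and at least 3 fewer in 0, against 0.151%. On transposition day 2, the only day that held both pre groups, the regions were called in 0 of 2 old pre and 3 of 3 young pre libraries. Those were old pre 3 and 4, which called 5.27% and 0% of regions called in 10 libraries, and within that day the regions stood at −0.235 calls in old pre relative to the number expected (exact conditional test, adjusted p = 1). No region of the 88, and 0% of all regions, was called in all 4 libraries of one pre group and none of the other, but without young pre 4 both of these were, against 0.258% of all regions. Over the alternatives tried, their adjusted p lay between 0.215 and 1. In the other direction, Atg7 region 6 was called in 3 old pre and 1 young pre libraries (exact conditional test, p = 0.135, adjusted p = 1), and Tfe3 region 2, Atp6v1h region 1, Tfeb region 7 and Lipa region 2 each in 3 old pre and 2 young pre libraries (p = 0.230, adjusted p = 1).

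The comparison of old post with young post asks whether an age difference remains in a young host. By the exact conditional test 0 of 17 listed regions tested passed, where 0.465% of 5163 regions passed. All 24 that passed were higher in old post. At an unadjusted p under 0.05 there were 0 listed regions, against 1.84% of all regions. By Fisher's exact test without weights 0 passed, and 1 had an unadjusted p under 0.05, against 9.94% of all regions. That region was the only one called in all 4 libraries of one group and none of the other, Atp6v0d1 region 1 (chr8:105534074-105534425), within the gene. No old post library and every young post library had a peak there, and so did young pre 1 alone among the pre libraries. Its areas were 205, 208, 246 and 214 in young post and 209 in young pre, close to the smallest area of 200 in any list. It had p = 0.347 and an adjusted p of 1 by the exact conditional test. No pattern of fewer calls in old post had a smaller p under these weights. This test could therefore not call any region lower in old post, and its 0 says nothing about loss there. The pattern of 0 old post and 4 young post calls was seen in 1.14% of the 88 regions, against 1.52% of all regions. Without old post 3 there were 9 such regions of the 88 (10.2%, against 5.35% of all regions), Atg7 regions 4, 6, 9 and 12 among them. Without any single young post library there were 2 (2.27%, against 1.86% to 2.37% of all regions). The opposite pattern was seen in 0, against 0% of all regions.

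At least 3 fewer calls in old post than in young post were seen in 13 of the 88 regions (14.8%), against 7.99% of all regions. Of these, 7 were regions of Atg7, a single locus with 13 of the 88 regions, which are not independent of each other. The others were Atp6v0d1 region 1, Mitf region 1, Pik3c3 region 2, Tfeb region 6 and Uvrag regions 2 and 8. The excess over the share of all regions thus came largely from 1 locus. Atg7 regions 10 and 13, which were among the 13, were kept only through their young post calls. At least 3 more calls in old post were seen in 0 of the 88, against 0.0711% of all regions. None of the 13 with fewer calls in old post was at a gene end. The areas of Tfeb region 6 stood at percentile 3.25 to 13.7 of the lists that called it. After Atp6v0d1 region 1, the lowest p in this direction was shared by Atg7 regions 3, 10 and 13 and Pik3c3 region 2, each called in 0 old post and 3 young post libraries (exact conditional test, p = 0.471, adjusted p = 1).

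With both stages pooled, 8 old libraries were set against 8 young ones, and libraries of the same donor before and after transplantation were counted as independent, which can make p too small. Of 43 listed regions tested, 0 passed by the exact conditional test, where 0.27% of 15182 regions passed, 38 higher and 3 lower in old. At an unadjusted p under 0.05 there were 2, both lower in old, against 4.56% of all regions, and also 2 by Fisher's exact test without weights, against 2.13%. Atp6v0d1 region 1 and Atg7 region 3 (chr6:114594400-114594846) each had a peak in none of the 8 old libraries and in 5 of the 8 young ones (exact conditional test, p = 0.0377, adjusted p = 0.813). Atg7 region 3 lies 48358 bp before the gene and was called in young post 1, 2 and 4 and young pre 1 and 2, at percentile 1.77 to 20.5. On the days that held both ages, Atg7 region 3 was called in 0 of 4 old libraries, namely 0 of 2, 0 of 1 and 0 of 1 on days 2, 5 and 6, and in 2 of 3, 2 of 2 and 1 of 2 young libraries. Npc1 region 3 and Tfeb region 3 were next, each with peaks in 3 old and 7 young libraries of 8 each (p = 0.0512, adjusted p = 0.813 by the exact conditional test).

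Post and pre libraries of the same donors were compared as pairs, as the study's design states, which asks what transplantation changes. Over 8 pairs, 0 of 9 listed regions tested passed by the paired exact test, where 0.23% of 1738 regions passed, and 0 had an unadjusted p under 0.05, against 1.15%. The 4 regions that passed were all lower in post. Among the 9, the smallest p belonged to Atg7 region 8 (paired exact test, p = 0.137, adjusted p = 0.709). It had peaks in 4 post and 2 pre libraries of 8 each, which was −1.15 calls in post relative to the number expected from list length. Most post lists were longer than the pre list of the same donor, which left this test little room to call a gain. Mitf region 3, with peaks in 6 post and 2 pre libraries, stood at only 0.0406 calls beyond the number expected. The 0 therefore says little about gains. By Fisher's exact test without weights or pairs 0 of 43 passed, and 4 had an unadjusted p under 0.05, against 15.9% of all regions. Over the 4 young pairs, 0 of 8 listed regions passed, where 0.159% of 2512 regions passed, and 0 had an unadjusted p under 0.05, against 0.796%. The 4 regions that passed were all lower in young post, and this test could not call a gain there. By Fisher's exact test 0 of 27 passed, and 7 had an unadjusted p under 0.05, against 27.2% of all regions. That 0 decides nothing, since a region could pass this test of 4 against 4 only if most regions tested had its smallest p. Over the 4 old pairs no listed region had a pattern that could be tested, and 25% of the 4 regions that could be tested passed, the same share as at an unadjusted p under 0.05. By Fisher's exact test 0 of 27 passed and 0 had an unadjusted p under 0.05, against 0.0385% of all regions.

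Of the 88 regions, 7 (7.95%) were called in 4 of 4 young post and 0 of 4 young pre libraries, against 7.13% of all regions. The opposite pattern was seen in 0, against 0.00296%. The 7 were Atg7 regions 4 and 7, Mitf regions 1 and 3, Tfeb region 6 and Uvrag regions 2 and 8. None of them was at a gene end as defined here, although Mitf region 3 lies at a start. The 4 young post lists were all longer than every young pre list. Each of the 7 had p = 1 and an adjusted p of 1 by the paired exact test, which weights libraries by list length. Under these weights calls in young post alone are the likeliest pattern, so that the pattern fixed this p. No gain in young post could be called by this test. Of the 88 regions, 73 (83%) were called in all 4 young post libraries, against 79.9% of all regions. At least 3 more calls in young post than in young pre were seen in 24 regions (27.3%), against 21.1% of all regions. Among the 24 were Atg7 regions 1, 4, 6, 7, 9, 10, 11, 12 and 13, of which regions 10 and 13 were kept only through young post. The excess over the share of all regions thus came largely from the Atg7 locus. At least 3 fewer were seen in 0, against 0.145%. Without young pre 1, the young pre library with the longest list, 19 regions (21.6%, against 17% of all regions) had calls in every young post and in no young pre library. No listed region was called in all old post and no old pre libraries, against 0.00888% of all regions, or in all old pre and no old post libraries, against 0.00296%. Without old post 4 there were 2, Tfeb region 3 and Npc1 region 3 (2.27%, against 1.13% of all regions).

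Another 105 autophagy and lysosome genes, among them further pump subunits, hydrolases and amino acid sensors, were listed apart from the 38. Of these, 101 had a region, 198 regions in all, of which 50 (25.3%, against 15.6% of all regions) were called in all 16 libraries. The shares called were 74.9% ± 18.6 in old post, 92.7% ± 0.652 in young post, 63.9% ± 28.9 in old pre and 68.3% ± 20.2 in young pre (SD, n = 4 each), where all regions had 67.1% in old post, 88.5% in young post, 55.5% in old pre and 56.2% in young pre. By the exact tests, 0 passed among 52 regions tested in old pre against young pre, 21 in old post against young post and 72 in old against young. Among 6 in post against pre and 11 in young post against young pre, 0 passed. Losses in old post against young post, and gains in young post over young pre, could not be called by these tests. Gains in post over pre had little room. At an unadjusted p under 0.05 there were 3, 1 of 52 in old pre against young pre, against 2.29% of all regions, and 2 of 72 in old against young, against 4.56%. A region near Laptm5 (chr4:130901951-130902998), a lysosomal membrane protein of blood cells, was called in 3 old post, 4 young post, 0 old pre and 3 young pre libraries, the counts of Tfeb region 3 (exact conditional test, p = 0.00338, adjusted p = 0.361). A region within Tax1bp1 (chr6:52717667-52718110), an autophagy receptor, had peaks in 2 old and 7 young libraries of 8 each (exact conditional test, p = 0.00797, adjusted p = 0.395). A region near Laptm4a (chr12:8889176-8889580), another lysosomal membrane protein, had peaks in 4 old and 1 young library of 8 each (exact conditional test, p = 0.00986, adjusted p = 0.411).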

How the data were processed

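Each of the 16 libraries has a deposited narrowPeak list without a header, so that peaks of each library stand in a list of their own. Build mm10 and, among the tools, FastQC, MultiQC, Trim Galore, cutadapt, Genrich, ChIPseeker and featureCounts are named, without roles, per the submitters' processing notes. For the aligner, tool versions and thresholds, nothing was found (not given in the sources used here). In the deposited lists, one score is a peak's area, never under 200, and a second score equals 1000 times the area per base up to a limit of 1000 (0 peaks differed by more than 1). The deposited lists also give the −log10 p and −log10 q of each summit and its distance from the peak start. These values carry no normalisation across libraries. Libraries were therefore compared by whether a peak was there, and depth is unknown.

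Of 387029 peaks, 393 (0.102%) lay outside chromosomes 1 to 19 and X and were left out. Peaks that overlapped by at least 1 bp were merged. Names and gene spans of 21631 protein-coding genes came from RefSeq (GRCm38), which holds no strand there; strand, starts and promoter sequences came from a RefSeq table of GRCm38.p6, which matched 29 listed genes. Library weights were estimated by conditional maximum likelihood (a Rasch model) over all regions. Age comparisons were tested without pairs on regions called in 3 to 5 of 8 or 4 to 12 of 16 libraries, and post against pre within donor pairs, taken from the series design, on regions where at least 6 of 8, or 4 of 4, pairs had a single call. The pairs carry the same replicate number within an age, and post and pre libraries of the same donors had correlations of deviations from −0.331 to 0.194. Of these 8 donor pairs, 2 correlated best with their own number. Python 3.11.15, numpy 2.4.6, pandas 2.3.3, scipy 1.17.1 and matplotlib 3.10.9 were used.

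The listed genes, the other gene lists and the rules were chosen with earlier results of these data known. Regions given in full were, for each comparison, the 3 listed regions with the smallest p in each direction (ties broken by more libraries, then position, and regions tied with them named beside them), those called in all of one group and none of the other, and the region of each gene called in most libraries. Alternatives were tests without weights, shortened lists, a stricter area, closer summits, a minimum of 3 libraries, a gene distance of 10 kb, other pairings, shared transposition days and each library left out.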

Additional observations from a re-analysis of the deposited data

Results flagged for a closer look

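Counts of listed regions called, in all, by location and for Atg7, Uvrag and Tfeb, and the difference from the expected share, were examined for a library far from the others of its group by Dixon's rule at 95%, in 29 sets of 4 libraries. Chance sets a library apart in about 1 of 20 separate sets of continuous values. These sets share regions and most hold counts, some of them tied, so that rate is only a rough guide here. In all, 2 were found. Old post 4 called 24 of the 32 gene-end regions, against 31, 32 and 32 in the other old post libraries. Its list of 14008 peaks was the shortest of its group, and the part of list length in this was not tested. Young post 1 called 10 of the 13 Atg7 regions, against 12 in each of the other young post libraries. With the others tied, the rule flags any library that differs.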

How the results depend on the processing

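The number of listed regions that passed was 0 in all 6 comparisons under every alternative that could be run. Some of these counts were fixed in advance or nearly so. By Fisher's exact test of 4 libraries against 4, a region could pass only if most regions tested had its smallest p of 0.0286. In the old pairs 0 listed regions could be tested in the main test or with the stricter area or close summits. The same held there with at least 3 libraries, a gene distance of 10 kb, or without pair 1, 2 or 3. In post against pre 0 could be tested with shortened lists or the stricter area. With old and young paired by number, 0 could be tested in old pre against young pre and in old against young. By the exact conditional test, the smallest adjusted p was 0.215 in old pre against young pre, 0.267 in old post against young post and 0.220 in old against young. It was 0.256 in post against pre and 0.105 in young post against young pre, both by Fisher's exact test without weights or pairs. In the old pairs it was 0.214 by the paired exact test, without the pair of old post 4 and old pre 4. Without the replicate block, 0 listed regions passed in the post against pre comparisons, and pairing old with young by replicate number (replicate block) also gave 0, with 1 listed region tested; the labels do not link these numbers, and deviations of same-numbered libraries correlated at −0.0657 to 0.367, with 2 of 8 pairs correlating best with their own number. Over all regions, the count that passed without the block was 61 in post against pre, against 4 in the paired test, and 66 in the young pairs, against 4. With the block by number it was 0 in old post against young post, against 24, and 6 in old against young, against 41. Leaving out a library loosens the rule of all of one group and none of the other, so counts then only stay or rise: they ranged from 1 to 9 in old post against young post (1.58% to 5.35% of all regions), 7 to 19 in young post against young pre (7.18% to 17%), 0 to 2 in old post against old pre (0.0118% to 1.13%) and 0 to 2 in old pre against young pre (0% to 0.376%). With shortened lists these counts, of 40 regions, were 0 in old post against young post (0.541% of all regions), 1 in young post against young pre (Uvrag region 4; 1.6%) and 2 in old post against old pre (Becn1 region 1 and Pik3c3 region 1; 1.03%). With an area of at least 400 they were, of 64, 2 in old post against young post (Npc1 regions 2 and 3; 1.63%) and 2 in young post against young pre (7.07%). The young post share of 90.9% became 81.25% with shortened lists, where old post also had 81.25%, and 87.5% with the stricter area, 88.35% with close summits and 96.65% with at least 3 libraries; the cause was not tested.

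Some regions far from the threshold turned direction, with adjusted p of 0.545 or more; values are calls beyond expectation. By Fisher's exact test without weights or pairs, Tfe3 region 3 was at −0.5 and Gabarapl1 region 2 and Ctss region 1 at −1 in old post against young post, and Atg7 regions 8 and 9 and Ctss region 1 at 1 in post against pre, as was Atg7 region 8 in young post against young pre. Tfeb region 7 was at −0.502 with the stricter area in old against young, Gabarapl1 region 2 and Ctss region 1 at −0.0755 with close summits, Gabarapl1 region 2 at −0.481 on shared days, and Mitf region 3 and Atg7 region 7 at −0.0306 in post against pre with at least 3 libraries. With a library left out, the lowest and highest values in old post against young post were −0.500 and 0.516 for Gabarapl1 region 2 and −0.306 and 0.246 for Ctss region 1. In post against pre, with the donor pair left out, they were −0.00274 and 0.807 for Tfe3 region 3 and −0.130 and 0.210 for Mitf region 3 and Atg7 region 7, and for Atg7 region 8 in the young pairs −0.862 and 0.0577. The calls over all regions also moved, between 0 and 24 in old post against young post, 0 and 65 in old against young, and 0 and 51 in the old pairs (51 without the pair of old post 4 and old pre 4). On day 2 alone, 0 of 22 listed regions passed in old pre against young pre, with regions called in 2 or 3 of the 5 libraries tested, a range chosen after seeing the data. List length limits what could be called at all, and read depth is unknown.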
